A study of Bos taurus with 7 samples.

Results

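The membrane transporters examined here are the ATP-binding cassette (ABC) proteins of subfamilies A to G, the organic anion transporters of the SLCO family, the organic cation, carnitine and anion transporters of the SLC22 family, and the SLC47 extruders. Their probes were taken from the rumen epithelium arrays by gene name alone, with the prostaglandin transporter SLCO2A1 left out. This gave 65 probes for 65 genes among the 15008 probes of the array. Total RNA came from rumen epithelium samples of 7 Holstein calves in 2 feeding groups, which the design text says were formed 3 weeks after weaning. HAY calves 9, 10 and 13 (n = 3) received forage, and CON calves 8, 11, 12 and 14 (n = 4) did not. Each calf was measured once, on its own single-colour array, and the age of the animals and the make-up of the starter feed were not stated in the labels. The series title places the study around dietary forage, calf starter and rumen pH, and the comparison asks which transporter transcripts differed with forage.

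ABC proteins of the plasma membrane use ATP to export lipids, sterols, drugs, conjugates and cyclic nucleotides, while others serve mitochondria, peroxisomes and lysosomes, and the soluble E and F subfamilies act on ribosomes instead of moving a substrate across a membrane. SLC22 and SLCO proteins carry organic ions without ATP, several of them by exchange against another ion, and SLC47 proteins extrude organic cations against protons. The rumen epithelium is a stratified squamous layer through which fermentation acids and other small organic ions pass to the blood.

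The level of each gene rested on 1 probe of 60 bases. The probe sequences of 3 of the genes described below are printed because they show what was hybridised for the organic anion exchanger SLC22A6, the lysosomal peptide transporter ABCB9 and the efflux pump ABCC4. They are given in lower case, 5′ to 3′, with no part singled out.
SLC22A6: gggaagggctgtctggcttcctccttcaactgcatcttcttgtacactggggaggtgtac
ABCB9: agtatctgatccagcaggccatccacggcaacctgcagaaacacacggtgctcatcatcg
ABCC4: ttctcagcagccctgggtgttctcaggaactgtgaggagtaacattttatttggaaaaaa
In the coordinates of the deposited files (UMD_3.1), the SLC22A6 probe lies at chr29:41984850-41984909 on the minus strand, the ABCB9 probe at chr17:54848529-54850791 on the plus strand and the ABCC4 probe at chr12:32215428-32215487 on the plus strand. The interval of the ABCB9 probe is longer than the probe itself. Of the 3 forward reading frames, 3 held no stop codon in the SLC22A6 probe, 2 in the ABCB9 probe and 1 in the ABCC4 probe. The polyadenylation hexamer AATAAA, searched on the probe strand only, stood in 7 of the 65 transporter probes (10.8%), among them that of SLC22A8, and in 9.51% of all probes. No pair of transporter probes matched at more than 31 bases in any ungapped alignment with at least 30 aligned bases. Exon and UTR annotation of this build was not used here.

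Markers of keratinocytes, the cells of this epithelium, were present: all 12 on the array passed the filter on dim probes, 6 with higher and 6 with lower means in HAY. Their summed signal, in units of each array's 75th percentile, was 469.9 to 560.2 in HAY and 382 to 564 in CON. One of them, KRT4, was well above background on none of the HAY arrays and on all 4 CON arrays. All 11 fibroblast markers had lower means in HAY, with sums of 16.4 to 75.02 in HAY and 50.4 to 240.2 in CON. The sums were 11.6 to 26.7 in HAY and 28.3 to 63.7 in CON for 7 smooth muscle markers, 2.24 to 7.09 in HAY and 5.19 to 12.0 in CON for 9 endothelial markers and 6.37 to 6.83 in HAY and 9.79 to 15.4 in CON for 7 macrophage markers. Those of smooth muscle and macrophages did not overlap between groups. For 6 T and NK cell markers the sums were 1.02 to 1.15 in HAY and 1.11 to 1.49 in CON, and for 2 red cell markers 3.80 to 5.79 in HAY and 2.68 to 4.43 in CON. All markers of smooth muscle and endothelium and 6 of the 7 of macrophages also had lower means in HAY. CON calf 8 had the highest and HAY calf 13 the lowest fibroblast sum. The sums add linear signals, so the brightest markers weigh most. These were COL3A1, COL1A2 and COL6A1 for fibroblasts, MYLK and ACTA2 for smooth muscle and HBA for red cells. In bulk RNA, fewer cells of a type and less RNA per cell cannot be told apart. Slide row and column were read from the digits that end the name of each deposited scan, not from the sample labels. Read so, the HAY arrays lay in row 1 of the slide and the CON arrays in row 2. An effect of the row thus cannot be told apart from one of the feeding.

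No transporter transcript passed the adjustment over all probes in the comparison of forage with no forage. The anion transporters SLC22A6 and SLC22A8, the lysosomal ABCB9 and the peroxisomal ABCD3 were among those with higher means in HAY, and ABCA6 and ABCC4 among those with lower means, all short of that threshold. Of the 65 probes, 46 were detected, meaning a signal well above background by the scanner's flag, on 3 or more arrays. These entered the limma fit over 12604 probes. At an adjusted p under 0.05 stood 0 of 46, where 0.00793% of all tested probes were called. At an unadjusted p under 0.05 stood 11 members (23.9%), against 13.9% of all tested probes. Of these, 8 were higher in HAY (ABCB8, ABCB9, ABCD3, ABCF1, SLC22A6, SLC22A8, SLC22A10 and SLC22A14), where 6.78% of all probes were called in that direction. The other 3, among them ABCA6 and ABCC4, were lower in HAY, against 7.16% of all probes. The 11 became 6 without CON calf 8, 6 without CON calf 8 and HAY calf 13 together, and between 8 and 15 without any 1 of the other 6 calves. The share over all tested probes moved as well, to 9.54% without CON calf 8, 5.93% without both calves, and between 7.80 and 18.6% without any 1 of the others. The groups did not overlap in 7 members (15.2%), against 11.8% of all probes. Of the 7, 6 lay higher in HAY, against 6.55% of all probes, and 1 lay lower, against 5.29%. A difference of at least 2-fold at an unadjusted p under 0.05 was seen in 1 member, ABCA6 (2.17%), against 4.69% of all probes. The median log2 difference over the 46 members was 0.12, HAY minus CON, with 27 higher and 19 lower in HAY where 54.5% of all tested probes were higher and 45.5% lower. It was 0.03 over all tested probes. Without CON calf 8 and HAY calf 13 the members' median was -0.02. The absolute difference had a median of 0.37 log2 units in the members and of 0.21 in all tested probes.

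**Figure D1:**
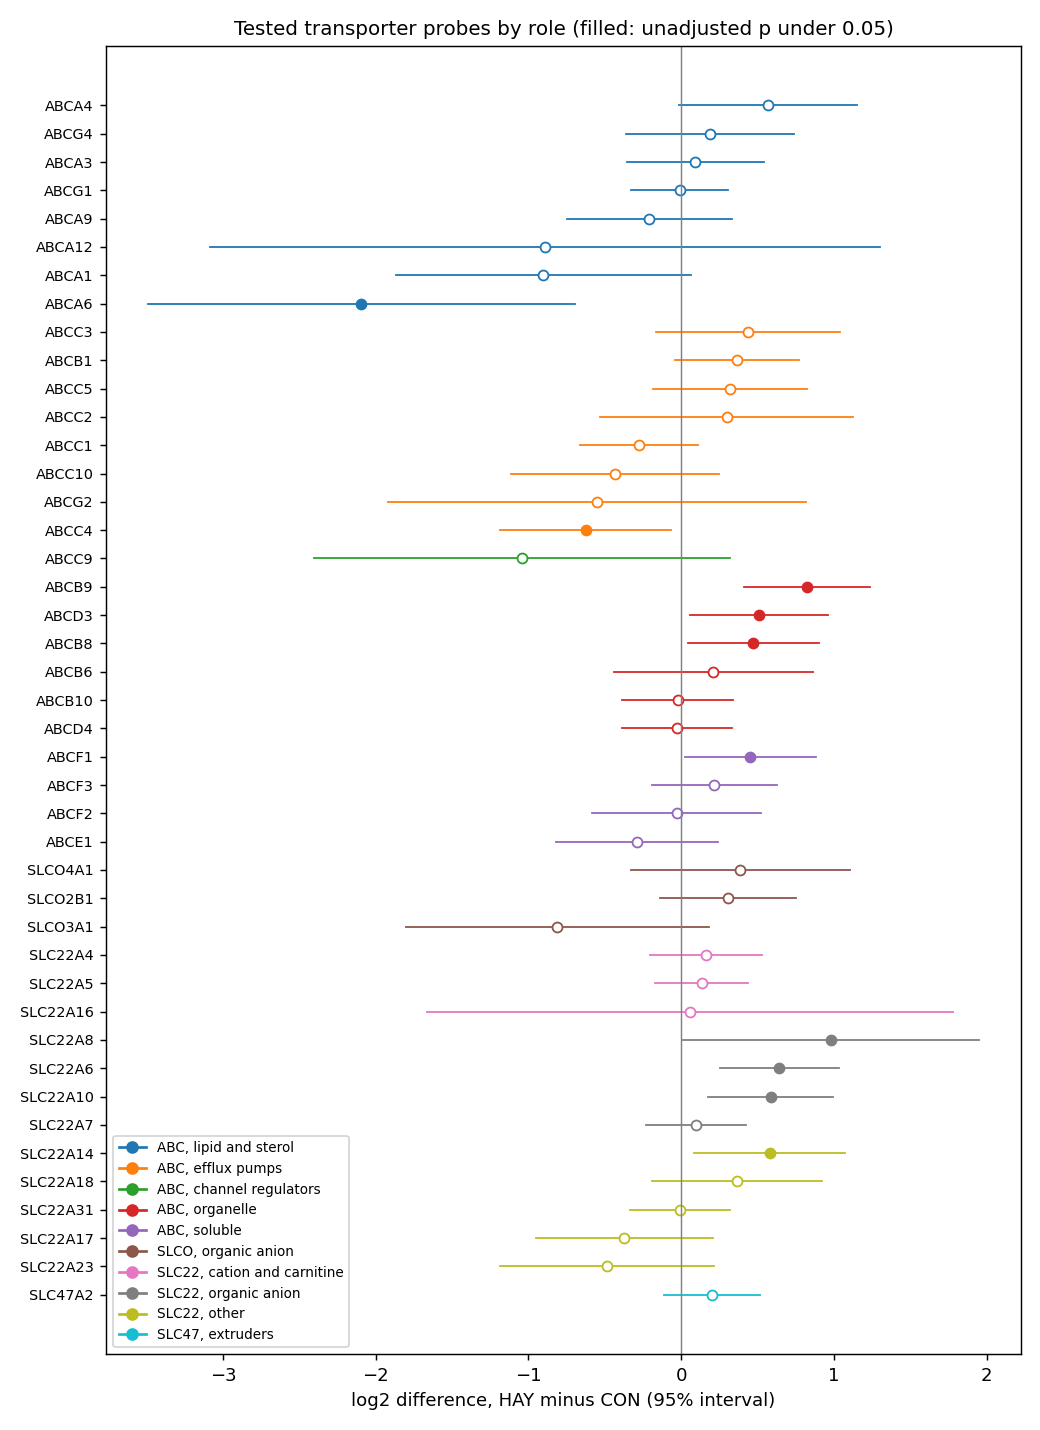
Log2 difference, HAY minus CON, of 43 of the 46 tested transporter probes, grouped and coloured by role, with lines for the 95% interval of the limma fit. The 10 filled points have an unadjusted p under 0.05, and none passed the adjustment; the widest intervals belong to ABCA12, SLC22A16, ABCA6, ABCG2 and ABCC9.

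Detection varied by role. All 4 soluble ABC genes and all 5 genes of the mixed SLC22 group were well above background on all 7 arrays, as were 8 of 9 organelle ABC genes. By contrast, 4 of 7 SLCO genes, 3 of 7 SLC22 anion transporters and 5 of 13 lipid transporters missed the filter. In all, 41 of 65 probes (63.1%) were well above background on all 7 arrays, against 77.5% of all probes on the array, and 10 (15.4%) on none, against 11.1%. The 10 on none were ABCA13, ABCC8 (SUR1, the sulfonylurea receptor), ABCC11, ABCG8, SLC22A3 (the organic cation transporter OCT3), SLC22A9, SLC22A20, SLC47A1 (MATE1), SLCO1A2 and SLCO1B3. Well above background on 1 or 2 arrays were ABCA5, ABCA7, ABCB11 (the bile salt export pump), ABCD2, ABCG5, SLC22A11, SLC22A15, SLCO4C1 and SLCO6A1. These 19 have no tested difference. SLC22A15 was well above background in CON calf 8 alone, at -6.29 log2 units, with the other 6 calves between -9.90 and -8.46. SLCO6A1 had log2 signals of -7.98, -6.73 and -6.93 in HAY, against -8.01, -7.22, -7.83 and -7.16 in CON. It was detected on 2 of 3 HAY arrays and on no CON array, and the groups overlapped, with HAY calf 9 below CON calves 11, 12 and 14.

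**Figure D2:**
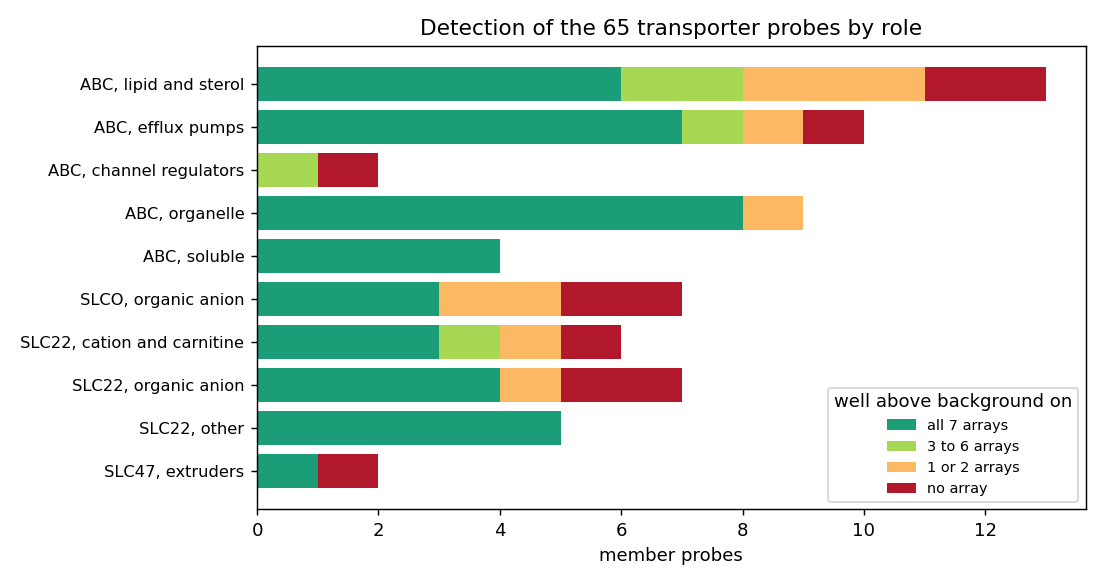
Number of transporter probes (x axis) in each role, coloured by how many of the 7 arrays they were well above background on. All 4 soluble ABC probes and all 5 of the mixed SLC22 group were detected on all arrays, while 4 of the 7 SLCO probes and 5 of the 13 lipid transporter probes were detected on fewer than 3.

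All 4 tested organic anion transporters of the SLC22 family, SLC22A6, SLC22A7, SLC22A8 and SLC22A10, had higher means in HAY, as did 54.5% of all tested probes. The median of their log2 differences was 0.61. At an unadjusted p under 0.05 stood 3 of the 4, against 13.9% of all tested probes. SLC22A6 encodes OAT1, known from the kidney as an exchanger of organic anions for dicarboxylates. Its log2 signal, where 0 is the 75th percentile of the array, was -3.14, -2.63 and -2.70 in HAY calves 9, 10 and 13, against -3.55, -3.29, -3.49 and -3.55 in CON calves 8, 11, 12 and 14. All HAY calves were above all CON calves, and HAY calf 9 was nearest to the CON group. SLC22A6 averaged -2.83 ± 0.28 in HAY (SD, n = 3) and -3.47 ± 0.12 in CON (SD, n = 4), a 1.56-fold higher level in HAY (HAY minus CON 0.64 log2 units, SE 0.17, limma unadjusted p = 0.00541, adjusted p = 0.232). The unadjusted p was under 0.05 in all 16 alternatives, with differences from 0.45 to 0.80.

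SLC22A8 encodes OAT3, the related anion exchanger of the kidney. Its log2 signal was 1.56, 2.40 and 2.78 in HAY, against 0.35, 1.81, 1.23 and 1.66 in CON. HAY calf 9 lay below CON calves 11 and 14, so the groups overlapped, and CON calf 8 was the lowest of all. SLC22A8 was 1.97-fold higher in HAY (HAY minus CON 0.98 log2 units, SE 0.42, limma unadjusted p = 0.0477, adjusted p = 0.355). Its unadjusted p was not under 0.05 without CON calf 8 (difference 0.68), CON calf 12, HAY calf 10 or HAY calf 13 (0.72), or with slide column blocked. SLC22A10, a less studied member of the group, had log2 signals of -6.33, -5.74 and -6.15 in HAY, against -6.78, -6.50, -6.58 and -6.77 in CON. The groups did not overlap (HAY minus CON 0.59 log2 units, SE 0.18, limma unadjusted p = 0.0114, adjusted p = 0.262). SLC22A10 is a dim probe, and its difference was 0.08 with normexp background correction. That setting also added an offset of 50 to every signal, which shrinks differences of dim probes. SLC22A7 (OAT2) differed by 0.10 (95% interval -0.23 to 0.43). SLC22A9, SLC22A11 and SLC22A20 missed the filter.

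Among the cation and carnitine transporters, 4 of 6 were tested and all 4 had higher means in HAY, as did 54.5% of all tested probes. None stood at an unadjusted p under 0.05. SLC22A5 encodes OCTN2, the carnitine transporter, and had log2 signals of 3.93, 3.92 and 3.81 in HAY, against 3.69, 3.94, 3.66 and 3.72 in CON. The groups overlapped, and the difference was 0.13 (95% interval -0.17 to 0.44). SLC22A4 (OCTN1, a carrier of ergothioneine) differed by 0.16 (95% interval -0.20 to 0.53) and SLC22A16, a carnitine transporter, by 0.06 (95% interval -1.66 to 1.78). The SLC22A4 difference was 0.06 (HAY calf 13 out) and 0.27 (HAY calf 10 out), and that of SLC22A16 was -0.18 with normexp. SLC22A3 had signals of -8.61, -9.57 and -9.81 in HAY, against -8.69, -9.25, -8.15 and -9.39 in CON, nowhere well above background.

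The mixed SLC22 group held 5 tested members, of which 2 had higher and 3 lower means in HAY. SLC22A14, needed for sperm function in mouse, had log2 signals of -3.29, -2.72 and -2.73 in HAY, against -3.88, -3.31, -3.36 and -3.42 in CON. The groups came close, with HAY calf 9 and CON calf 11 next to each other, but did not overlap (HAY minus CON 0.58 log2 units, SE 0.21, limma unadjusted p = 0.0275, adjusted p = 0.310). Leaving out CON calf 8, HAY calf 10 or HAY calf 13, or blocking slide column, took its unadjusted p above 0.05. SLC22A18, an imprinted gene in human and mouse, differed by 0.36 (95% interval -0.19 to 0.92), by 0.17 without CON calf 8 and by 0.50 without CON calf 12. SLC22A17, a receptor for the iron carrier lipocalin-2, had log2 signals of 0.18, -0.0025 and -0.16 in HAY, against 0.97, 0.46, 0.08 and 0.01 in CON. CON calf 8 was highest and HAY calf 13 lowest, the other 5 calves lay between, and the difference was -0.37 (95% interval -0.95 to 0.21), or -0.18 without CON calf 8. Without CON calf 14 it was -0.50. SLC22A23 and SLC22A31 differed by -0.48 and -0.0051. Of the proton-driven extruders, SLC47A2 (MATE2) differed by 0.20 (95% interval -0.11 to 0.51), and SLC47A1 had signals of -7.95, -8.57 and -9.22 in HAY, against -7.99, -7.40, -7.71 and -8.38 in CON, nowhere well above background.

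Of the SLCO organic anion transporters, 3 of 7 were tested and none had an unadjusted p under 0.05. SLCO3A1, a carrier of prostaglandins and thyroid hormone, had log2 signals of -4.49, -5.32 and -5.89 in HAY, against -3.98, -3.95, -4.46 and -5.30 in CON. HAY calf 13 was the lowest, while HAY calf 9 stood beside CON calf 12, and the difference was -0.81 (95% interval -1.80 to 0.18), or -0.48 without HAY calf 13. It was -1.18 without HAY calf 9 and -1.10 without CON calf 14, both at an unadjusted p under 0.05. With slide column blocked it was -0.66, at an unadjusted p under 0.05. SLCO4A1, a thyroid hormone carrier, differed by 0.39 (95% interval -0.33 to 1.10) and by -0.06 without CON calf 8 and HAY calf 13. The SLCO4A1 difference was 0.71 (HAY calf 9 out), 0.08 (HAY calf 13 out) and 0.25 (CON calf 8 out). SLCO2B1, an uptake carrier of sulfated steroids and drugs, differed by 0.31 (95% interval -0.14 to 0.75), and by 0.01 with normexp, 0.20 (HAY calf 9 out) and 0.49 (HAY calf 10 out).

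**Figure D3:**
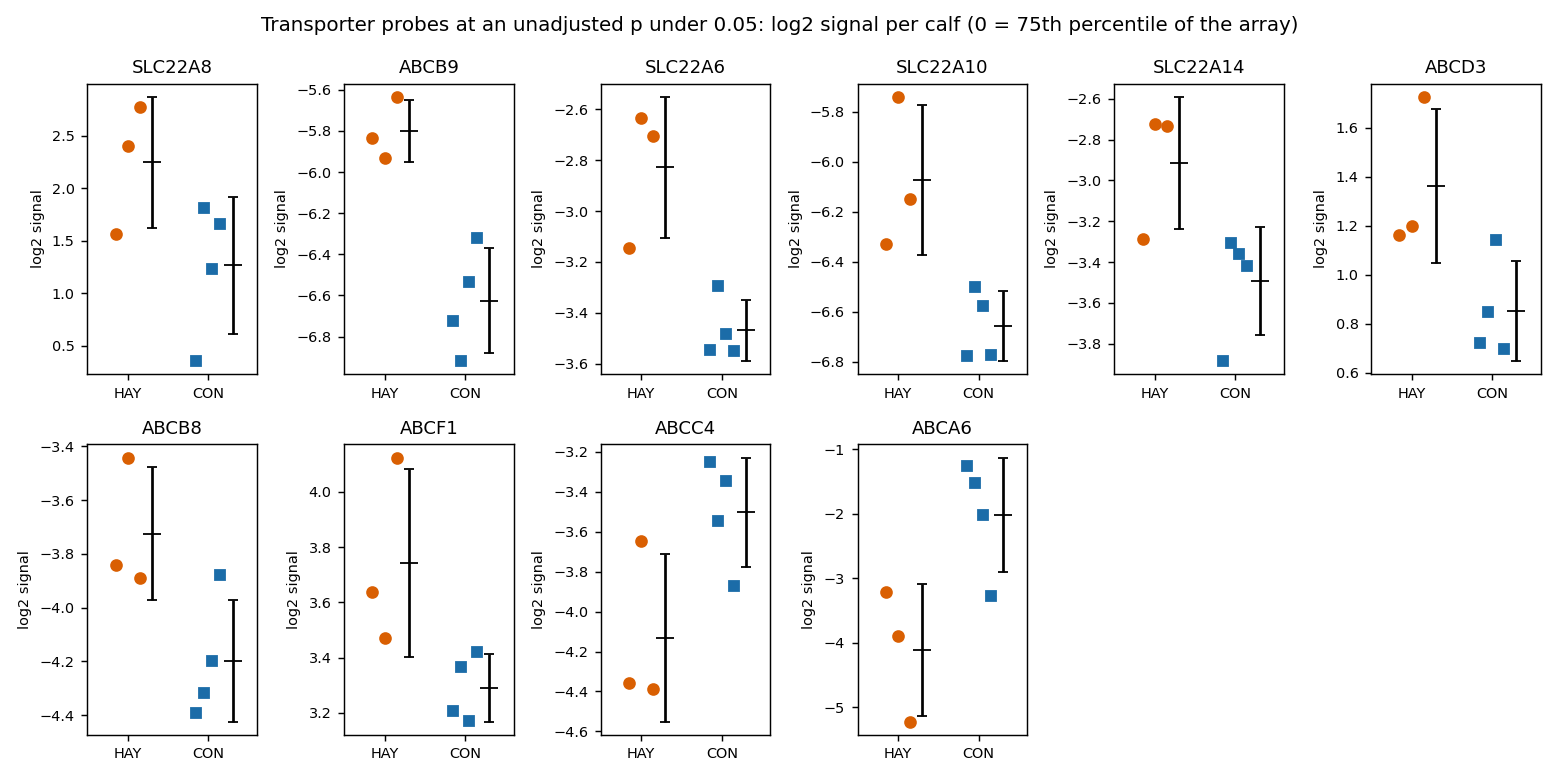
Log2 signal per calf of 10 of the 11 transporter probes at an unadjusted p under 0.05, HAY as circles and CON as squares, with the group mean and SD beside the points (HAY n = 3, CON n = 4) and 0 at the 75th percentile of the array. The groups are apart in ABCB9, SLC22A6, SLC22A10, SLC22A14, ABCD3 and ABCF1, narrowly so in SLC22A14, ABCD3 and ABCF1, and they overlap in SLC22A8, ABCB8, ABCC4 and ABCA6.

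ABC genes of organelles went both ways. Of 8 tested, 5 had higher and 3 lower means in HAY. At an unadjusted p under 0.05 stood 4, against 13.9% of all tested probes, with ABCB8, ABCB9 and ABCD3, all of higher means, among them. ABCB9 encodes TAPL, the peptide transporter of lysosomes. It had the smallest unadjusted p of all members, with log2 signals of -5.84, -5.93 and -5.63 in HAY calves 9, 10 and 13, against -6.73, -6.92, -6.53 and -6.32 in CON calves 8, 11, 12 and 14. Every HAY calf was above every CON calf, a 1.77-fold higher level (HAY minus CON 0.82 log2 units, SE 0.18, limma unadjusted p = 0.00190, adjusted p = 0.211). The ABCB9 probe is dim, and the difference was 0.08 with normexp.

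ABCD3, or PMP70, is a peroxisomal transporter that imports branched-chain and dicarboxylic acyl-CoA esters and had log2 signals of 1.16, 1.20 and 1.73 in HAY, against 0.72, 0.85, 1.14 and 0.70 in CON. The highest CON calf, 12, lay just under the lowest HAY calf (HAY minus CON 0.51 log2 units, SE 0.19, limma unadjusted p = 0.0314, adjusted p = 0.322). Its unadjusted p was above 0.05 without CON calf 8, 11 or 14 or without HAY calf 13, where the difference was 0.33, and with slide column blocked, where it was 0.47. Of the mitochondrial transporters, ABCB8 had log2 signals of -3.84, -3.44 and -3.89 in HAY, against -4.39, -4.32, -4.20 and -3.88 in CON. CON calf 14 lay above HAY calf 13, and the difference was 0.47 (SE 0.18, limma unadjusted p = 0.0350, adjusted p = 0.327), or 0.26 with normexp. The unadjusted p of ABCB8 was above 0.05 without HAY calf 10, without CON calf 8, 11 or 12, and with slide column blocked. ABCB6 and ABCB10, which serve porphyrin and heme metabolism, differed by 0.21 and -0.02. The lysosomal cobalamin transporter ABCD4 differed by -0.03.

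All 4 soluble ABC genes were tested. ABCF1, which binds ribosomes and promotes translation initiation, had log2 signals of 3.64, 3.47 and 4.12 in HAY, against 3.21, 3.37, 3.17 and 3.42 in CON. HAY calf 10 lay just above CON calf 14, so the groups did not overlap (HAY minus CON 0.45 log2 units, SE 0.18, limma unadjusted p = 0.0411, adjusted p = 0.341). Its unadjusted p was above 0.05 without HAY calf 9, without any 1 of CON calves 8, 11 and 12, without HAY calf 13, where the difference was 0.26, and with quantile normalization. ABCE1, the ribosome recycling factor, differed by -0.29, ABCF2 by -0.03 and ABCF3 by 0.22.

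Efflux pumps had no common direction. Of 8 tested, 4 had higher and 4 lower means in HAY. Their median difference was 0.01, and 1 stood at an unadjusted p under 0.05, against 13.9% of all tested probes. That was ABCC4 (MRP4), which exports cyclic nucleotides, prostaglandins and other organic anions. It had log2 signals of -4.36, -3.64 and -4.39 in HAY, against -3.25, -3.54, -3.35 and -3.87 in CON. HAY calves 9 and 13 were below all CON calves, while HAY calf 10 lay above CON calf 14 (HAY minus CON -0.63 log2 units, SE 0.24, limma unadjusted p = 0.0325, adjusted p = 0.324). Its unadjusted p was above 0.05 without HAY calf 9 or 13 or without CON calf 8, 11 or 12, with differences from -0.64 to -0.50. ABCB1, the multidrug efflux pump P-glycoprotein, had log2 signals of -3.16, -3.15 and -2.95 in HAY, against -3.60, -3.09, -3.66 and -3.45 in CON. CON calf 11 stood among the HAY calves, and the difference was 0.37 (95% interval -0.04 to 0.77). ABCC3 (MRP3), which exports glucuronides across the basolateral membrane, differed by 0.44 (95% interval -0.17 to 1.04), and ABCC1 (MRP1), an exporter of glutathione conjugates, by -0.28 (95% interval -0.66 to 0.11). Without HAY calf 13 these differences were 0.25 and -0.17. They reached 0.57 for ABCC3 (HAY calf 9 out) and -0.36 for ABCC1 (HAY calf 10 out). ABCG2 (BCRP), which exports urate and drugs and secretes riboflavin into milk, had log2 signals of -6.19, -5.97 and -7.49 in HAY, against -4.72, -5.85, -6.35 and -7.07 in CON. The groups overlapped widely, with CON calf 8 highest and HAY calf 13 lowest. The ABCG2 difference was -0.55 (95% interval -1.92 to 0.81), and 0.34 without those calves. With single calves left out it was -0.84 (HAY calf 10 out), -0.08 (HAY calf 13 out), -0.13 (CON calf 8 out) and -0.91 (CON calf 14 out). ABCC2, ABCC5 and ABCC10 differed by 0.30, 0.32 and -0.43. With normexp the difference was 0.10 for ABCC2 and -0.04 for ABCC5, where the sign turned.

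Lipid and sterol transporters included the member with the largest absolute difference. ABCA6, a member of the ABCA subfamily that lies in tandem with its close relatives, had log2 signals of -3.21, -3.90 and -5.23 in HAY calves 9, 10 and 13, against -1.26, -1.52, -2.02 and -3.27 in CON calves 8, 11, 12 and 14. HAY calf 9 lay just above CON calf 14, and the spread was wide within both groups. ABCA6 averaged -4.11 ± 1.02 in HAY (SD, n = 3) and -2.02 ± 0.89 in CON (SD, n = 4), a 4.27-fold lower level in HAY (HAY minus CON -2.09 log2 units, SE 0.60, limma unadjusted p = 0.00895, adjusted p = 0.256). Its difference was -1.66 with normexp and -1.28 without CON calf 8 and HAY calf 13, where its unadjusted p was not under 0.05. The summed fibroblast markers were 75.02, 30.2 and 16.4 in HAY calves 9, 10 and 13, against 240.2, 93.9, 77.0 and 50.4 in CON calves 8, 11, 12 and 14.

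The cholesterol exporter ABCA1, which loads lipid onto apolipoprotein A-I, had log2 signals of -9.02, -7.86 and -7.33 in HAY, against -6.77, -7.37, -7.67 and -6.86 in CON. It was detected on only 1 of 3 HAY and 2 of 4 CON arrays, and its difference was -0.90 (95% interval -1.87 to 0.06), or -0.16 with normexp and -0.43 without HAY calf 9. The ABCA1 difference was -1.27 without HAY calf 13 and -1.07 without CON calf 12, both at an unadjusted p under 0.05. ABCG1, which passes cholesterol to high-density lipoprotein, had log2 signals of -2.35, -2.17 and -2.24 in HAY, against -2.38, -2.16, -2.36 and -2.08 in CON. The 7 calves lay close together, and the difference was -0.011 (95% interval -0.33 to 0.31), of either sign depending on the scaling. ABCA12, which fills the lamellar granules of keratinocytes with glucosylceramide, had log2 signals of -7.50, -5.32 and -5.93 in HAY, against -7.35, -4.56, -6.08 and -3.45 in CON. It ranged widely within both groups, with CON calf 14 highest and HAY calf 9 lowest, and the difference was -0.89 (95% interval -3.09 to 1.30). With single calves left out it was -0.27 (HAY calf 9 out), -1.36 (HAY calf 10 out), -1.55 (CON calf 8 out) and -0.26 (CON calf 14 out). It was detected on 2 of 3 HAY arrays and all 4 CON arrays. ABCA3 and ABCA4, known from lung surfactant and retinal photoreceptors, differed by 0.09 and 0.57, and ABCA9 and ABCG4 by -0.21 and 0.19.

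Of the sulfonylurea receptors, which regulate ATP-sensitive potassium channels, ABCC8 was nowhere well above background and ABCC9 (SUR2, the form of vascular smooth muscle) was tested. ABCC9 had log2 signals of -6.71, -7.34 and -8.51 in HAY, against -5.63, -6.31, -6.18 and -7.79 in CON. CON calf 14 lay below HAY calves 9 and 10, and the difference was -1.04 (95% interval -2.40 to 0.32), or -0.35 with normexp and -0.55 without HAY calf 13. It was -1.45 without HAY calf 9 and -1.48 without CON calf 14, the latter at an unadjusted p under 0.05. With slide column blocked it was -0.76, at an unadjusted p under 0.05. It was detected on 1 of 3 HAY and 3 of 4 CON arrays. The part of the smooth muscle and endothelial marker sums in it was not tested. The channel subunit that pairs with it in vessels, KCNJ8, differed by -0.11 (SE 0.13).

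Some transporters with lower means in HAY ran in an order close to that of the connective tissue markers. ABCA6 placed all 7 calves in the same order as the summed fibroblast signal, the 1 member of 46 to do so. SLCO3A1 and SLC22A17 placed 5 of the 7 calves alike. ABCA3 and SLCO4A1 were among the members that placed 5 of the 7 calves as in the reverse of that order. CON calf 8 was highest and HAY calf 13 lowest in 5 of the 46 members, ABCA6, ABCC4, ABCC9, ABCG2 and SLC22A17. The opposite ends, HAY calf 13 highest and CON calf 8 lowest, were seen in 8 members, among them ABCB6, ABCC3, ABCG4, SLC22A18, SLC22A4, SLC22A8 and SLCO4A1. Calf orders were read for the members only, so no share over all tested probes stands beside these counts. Whether such orders are more common among transporters was not tested. The part of fibroblast, muscle, vessel or macrophage RNA in the transporter differences was not tested.

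**Figure D4:**
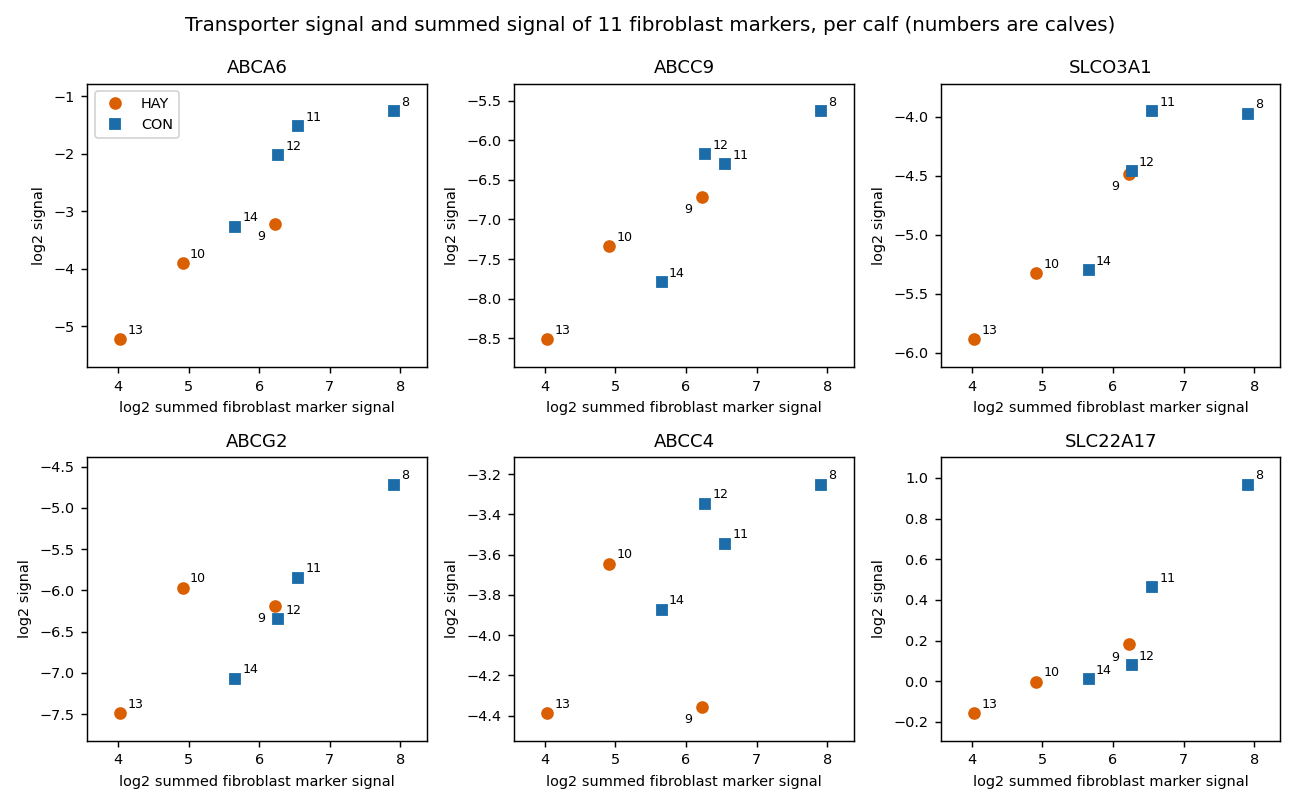
Log2 signal of 6 transporter probes (y axis) against the log2 summed signal of 11 fibroblast markers (x axis) in each calf, with calf numbers beside the points, HAY as circles and CON as squares. ABCA6 places the calves in the same order as the marker sum. In ABCC4, HAY calves 9 and 10 change places in that order, as do CON calves 11 and 12.

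Some transporter genes are neighbours in the deposited coordinates. SLC22A6 and SLC22A8 lie 14.8 kb apart on chromosome 29, with SLC22A10 310.0 kb beyond SLC22A8, and these 3 had differences of 0.64, 0.98 and 0.59. SLC22A9, 62.9 kb from SLC22A10, was nowhere well above background. On chromosome 19, ABCA6 and ABCA9 lie 12.6 kb apart with differences of -2.09 and -0.21, while ABCA5, 176 kb from ABCA6, missed the filter. SLC22A5 and SLC22A4, 70.3 kb apart on chromosome 7, had differences of 0.13 and 0.16. ABCD3 and ABCA4, 549.7 kb apart on chromosome 3, differed by 0.51 and 0.57. ABCB8 and ABCF2, 176 kb apart on chromosome 4, differed by 0.47 and -0.03, and SLC22A7 and ABCC10, 108 kb apart on chromosome 23, by 0.10 and -0.43. Neighbours shared a sign in the SLC22A6, SLC22A5 and ABCD3 groups and the ABCA6 pair, and not in the last pairs named.

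Of 20 genes for nuclear receptors and other regulators of transporter genes, 17 were tested, 14 with higher and 3 with lower means in HAY, where 54.5% of all tested probes were higher. SREBF1, the sterol-regulated factor of lipid synthesis, was the 1 at an unadjusted p under 0.05, where 13.9% of all tested probes stood. Its log2 signal was -2.23, -1.78 and -2.75 in HAY, against -3.77, -3.07, -3.01 and -3.61 in CON. The groups did not overlap (HAY minus CON 1.11 log2 units, SE 0.29, limma unadjusted p = 0.00543, adjusted p = 0.232). The liver X receptors NR1H3 and NR1H2, which drive ABCA1 and ABCG1, differed by -0.25 and 0.23, and the xenobiotic receptor NR1I2 was nowhere well above background. Of 19 partners and related carriers on the array, 15 were tested, 4 with higher and 11 with lower means in HAY, where 45.5% of all tested probes were lower. Of the 15, 4 stood at an unadjusted p under 0.05, against 13.9% of all tested probes. SLC15A1 (PEPT1, the proton-coupled peptide transporter) had log2 signals of -0.45, -1.36 and -1.19 in HAY, against 0.58, 0.93, 0.37 and 0.50 in CON. All HAY calves were below all CON calves (HAY minus CON -1.59 log2 units, SE 0.25, limma unadjusted p = 0.000269, adjusted p = 0.160). APOE, the apolipoprotein that accepts exported cholesterol, had log2 signals of 1.26, 0.30 and 0.01 in HAY, against 2.60, 2.45, 2.48 and 1.75 in CON. The groups did not overlap (HAY minus CON -1.80 log2 units, SE 0.34, limma unadjusted p = 0.000858, adjusted p = 0.165). APOE is abundant in macrophages, whose summed markers did not overlap either, and their part in the APOE difference was not tested. The scaffold proteins SLC9A3R1 and SLC9A3R2, which anchor transporters at the membrane, differed by 0.43 and -0.57. The bile acid carriers SLC10A1 and SLC51B were nowhere well above background. None of these regulators and partners passed the adjustment.

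The alternative with normexp and its offset of 50 bore most on dim probes. The parts of the correction and of the offset were not tested apart. With normexp, 10 of the 46 members had an unadjusted p under 0.05. ABCB8, ABCB9 and SLC22A10 were no longer among them. ABCA4, at 0.43, and SLCO3A1, at -0.53, were. SLC22A8, at 1.02, stayed near its value above. The sign turned with normexp in ABCC5, SLC22A16, ABCB10 and ABCD4, none at an unadjusted p under 0.05 on either scale.

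**Figure D5:**
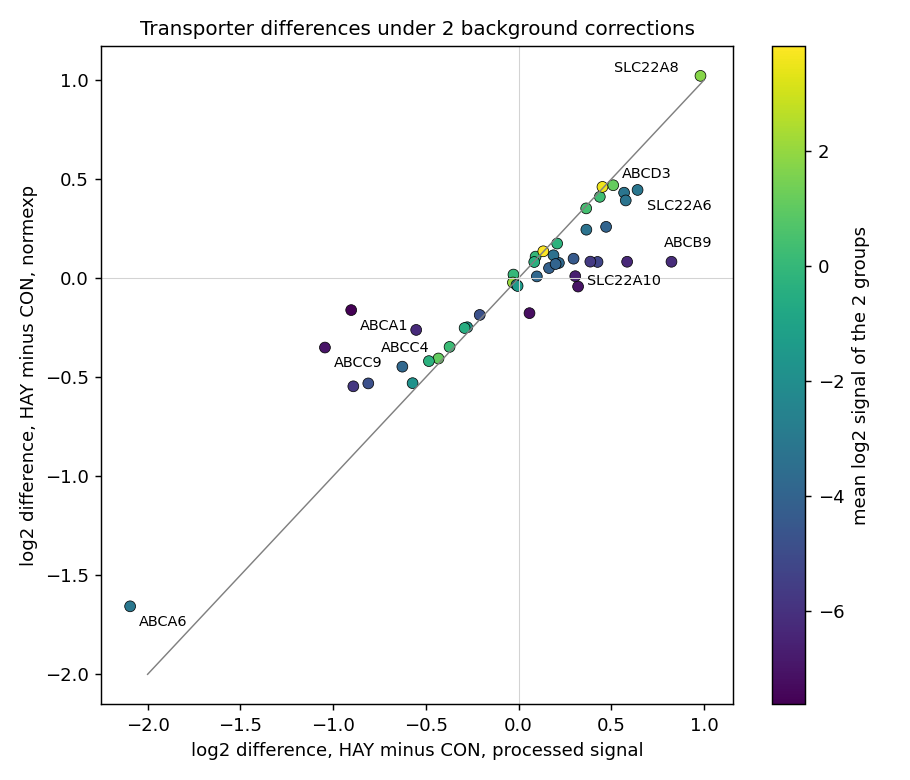
Log2 difference, HAY minus CON, of 46 tested members with normexp background correction (y axis) against that with the scanner's processed signal (x axis), coloured by the mean log2 signal. Points on the grey line have equal values; ABCB9, SLC22A10, ABCA1 and ABCC9, all dim, lie toward 0 with normexp.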

How the data were processed

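The deposited scanner output gives the spot intensity of single-colour Agilent arrays, already corrected for background and detrended in each array, per the file headers. The submitters' processing notes name Agilent Feature Extraction 9.5. The labels' protocols give 500 ng of total RNA, labelled with Cy3. A deposited table of log2 values for the whole series correlated at 1.00 (Pearson, across probes) with the scaled scanner values of every array, so its direction is the same. A correlation does not show the scale, but the ABCA6 difference was -2.09 with either set of values. The median of its columns was -3.14 (calf 9), -3.16 (calf 10) and -3.23 (calf 13) for HAY, then -3.11 (calf 8), -3.11 (calf 11), -3.11 (calf 12) and -3.13 (calf 14) for CON. Between 81.5 and 84.6% of spots per array were well above background, and the number of arrays limits the precision.

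Control and outlier spots were left out, log2 signals of repeated spots were averaged, and the 75th percentile of the array was taken off. No transporter spot was an outlier or saturated. Probes that the scanner flagged as well above background on 3 or more arrays were fitted with limma 3.58.1 (lmFit, eBayes) in R 4.3.3, HAY minus CON, 1 row per probe, with Benjamini-Hochberg adjustment over all of them, and the fit was checked on simulated data. Gene names are those of the files, and 42 of the 65 probes matched a current RefSeq symbol by accession, with 0 differing. The members and lists were chosen with earlier results of these data known. Per-calf values are given for the up to 12 tested members of smallest unadjusted p under 0.05 and for part of a panel of prior interest. For ABCC1, ABCC3, SLC22A4, SLC22A18, SLCO2B1 and SLCO4A1 of that panel the difference and its interval are given instead. ABCA8 of that panel was not analysed here, and 3 members that enter the fit and the counts are not reported by name. Alternatives changed the background correction, the scaling, the filter, the values used, the unit of the fit, a block for slide column, and each calf in turn. Leaving out CON calf 8 and HAY calf 13 together was chosen after seeing the data.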

Additional observations from a re-analysis of the deposited data

Results flagged for a closer look

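In 2 of 53 values examined for a single calf far from the rest of its group, CON calf 14 stood apart from the other 3 CON calves, and chance flags about 1 in 20 such groups. ABCE1, the ribosome recycling factor, had log2 signals of -0.72, -0.67 and -0.59 in HAY, against -0.56, -0.61, -0.54 and 0.24 in CON, a gap of 0.926 of the CON range. ABCF2, a soluble relative, had log2 signals of 1.80, 1.89 and 2.40 in HAY, against 1.92, 1.85, 1.90 and 2.57 in CON, a gap of 0.899 of the CON range. Without CON calf 14 the log2 difference was -0.09 for ABCE1 and 0.14 for ABCF2. Groups of 3, such as HAY, were not examined in this way.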

How the results depend on the processing

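No member passed the adjustment with limma in any of the 16 alternatives, beside 11 members at an unadjusted p under 0.05 in the values reported. That count, with the share over all tested probes (13.9% as reported), was 10 with normexp (13.7%), 14 with median scaling (16%), 12 with quantile normalization (15%), 12 with the deposited table (14%), 13 of 65 with no filter (12.5%), 12 of 41 with detection on all arrays (13.9%), 11 with 1 probe per gene name (14%) and 11 with slide column blocked (14.4%), there 5 higher and 6 lower in HAY in place of 8 and 3. Leaving out 1 calf at a time gave 6 to 15 (7.80 to 18.6%), and the count was 6 without CON calf 8 and HAY calf 13 (5.93%). Members without overlap numbered 8 to 17 with 1 calf fewer and 12 without those 2 calves, a count that cannot shrink when calves are removed. Over all tested probes the share without overlap ran from 14.4% (CON calf 8 out) to 31% (HAY calf 9 out). It was 21.6% without those 2 calves. The members' median was -0.024 without those 2 calves and from 0.0507 to 0.18 without any 1 calf. Of 413 recomputed differences of the 26 members followed through the alternatives, 7 reversed sign and 406 kept it. ABCA1, ABCA12 and ABCC9 have no value in the setting with detection on all arrays. ABCG1 was 0.053 with median scaling and 0.067 with quantile normalization, and it ranged from -0.057 to 0.045 with 1 calf fewer, the values above 0 being 0.038 (HAY calf 9 out), 0.017 (CON calf 11 out) and 0.045 (CON calf 14 out). Without CON calf 8 and HAY calf 13, ABCG2 was 0.34 and SLCO4A1 -0.064. By calf number, no paired analysis was possible because no number is shared between groups. The slide column block does pair arrays, HAY calf 9 with CON calf 11, 10 with 12 and 13 with 14, and CON calf 8, alone in its column, then adds nothing to a difference. In that fit ABCA6 was -1.84 (limma unadjusted p = 5.83e-05, adjusted p = 0.0788). The block leaves few residual degrees of freedom, so this p rests on little. Without CON calf 8 and with no block, the ABCA6 difference was also -1.84 (limma unadjusted p = 0.0227, adjusted p = 0.466). The cause of these changes was not tested.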
